A study of Mus musculus with 10 samples.

Results

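The genes described here are those of cartilage differentiation and cartilage matrix: 34 listed symbols, taken by name and not by their measured values. A gene was measured through the probe sets annotated to its symbol alone, and the probe set with the highest mean log2 signal over all arrays stood for it. Of the 34, 32 had at least 1 such probe set (66 probe sets in all), against 18194 genes on the whole array. Runx2 and Xylt1 had none of their symbol alone and are not analysed here. The chosen probe sets of 18 members lay at or above the median probe set of the array (a signal of 151) and entered the test, beside 11601 tested genes in all. The other 14 lay below it and are given as values without a test.

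Cartilage of the limb begins as condensations of mesenchyme. Sox9 commits these cells to the chondrocyte lineage and, with Sox5 and Sox6, switches on the genes of the cartilage matrix. That matrix is built from fibrils of collagens II, IX and XI and from aggrecan, a proteoglycan whose chondroitin sulfate chains hold water, tied to hyaluronan by link protein. Later, chondrocytes enlarge under the control of Indian hedgehog, the parathyroid hormone receptor and Runx factors, and make collagen X. Dicer is the enzyme that cuts microRNA precursors to their mature length, and miR-140, which lies inside the member Wwp2, is a microRNA characteristic of cartilage.

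The arrays hold RNA from limb buds of mouse embryos, 5 labelled wild type and 5 labelled mutant, each group numbered 1 to 5. The embryos came from parents that carried the prxcre driver and 1 Dicer allele flanked by loxP sites, mated to mice with both alleles so flanked, and were sorted by genotype into heterozygous, wild type and mutant. By this cross every embryo inherits at least 1 floxed Dicer allele, those labelled wild type included. The prxcre driver is known to recombine in limb mesenchyme, so ectoderm, blood vessels, blood cells, nerve and immigrant muscle precursors of a mutant limb bud would keep Dicer. The labels give neither the genotype of each array nor the stage, which limbs were taken, whether limb buds were pooled, or whether heterozygous embryos entered the wild type group. They do not say that arrays of a group came from separate embryos either, so the p-values measure the spread between these arrays, which may be technical.

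Genes of limb mesenchyme were bright in every array: Prrx1 lay between 2128 and 2898 (median 2583) and Hoxd13 between 2797 and 3456 (median 3177), in units of the deposited linear signal. Dicer1, the targeted gene, was measured by the probe set 1427941_at at 425, 233, 372, 390.4 and 706 in wild type arrays 1 to 5 and at 226, 359.7, 221, 215 and 205 in mutant arrays 1 to 5. The arrays labelled number 2 went against their labels here, with the mutant above the wild type. In the other 4 pairs every mutant lay below every wild type. The log2 difference, mutant minus wild type, was -0.74 over 10 arrays (exact two-sided permutation p = 0.01587) and -1.08 over the 8 arrays without the pair numbered 2. The second Dicer1 probe set gave -0.36 (exact p = 0.09524) and -0.57. The 8-array values of Dicer1 are a description with no test, since its values chose the pair left out. Whether either lies in the deleted part of the gene was not analysed here. Results are therefore given for the 10 arrays as labelled and for these 8, a choice made with the Dicer1 values known and for which no p-value is corrected.

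With all 10 arrays as labelled, no cartilage gene passed the test. With the 8 arrays, 2 members fell in the mutants, Col11a1, a chain of the collagen XI that starts cartilage fibrils, and Chst11, the enzyme that sulfates chondroitin. Neither stayed called in 7 of the 8 fits with 1 array fewer, with the mean of each gene's probe sets, or in the arrays numbered 4 and 5 alone. Wwp2, the host gene of miR-140, joined them when the replicate number was added as a block, a pairing that the labels do not state. Sox9 and Col2a1, the regulator and the main collagen of cartilage, did not pass in any of these fits. With array weights Sox9 was called lower in the 8 arrays, in a fit that called 2612 of 22519 probe sets, and Col2a1 was not called. Acan, the core protein of aggrecan, and Matn1, Ihh and Col10a1, genes of more mature cartilage, were below the test's filter. In bulk tissue, fewer cartilage cells and less RNA per cartilage cell cannot be told apart.

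In numbers, limma with Benjamini-Hochberg adjustment over 22519 probe sets called 0 of the 18 tested members in the 10 arrays, as it called 0 probe sets in all (0%). At an unadjusted p under 0.05 it marked 1 member, Chst11, against 632 probe sets (2.81%). In the 8 arrays 2 of 18 members were called, both lower, where 378 probe sets were called (1.68%), 169 of them lower (0.750%). At an unadjusted p under 0.05 there were 4 members, against 12.7% of probe sets. The block by replicate number gave 3 called members, all lower, against 5.41% of probe sets called in either direction and 3.01% called lower. Members are genes, while the shares here and below are over probe sets unless genes are named. Of 11601 tested genes, each by its brightest probe set, 0 were called in the 10 arrays, 250 in the 8 and 764 with the block. The split of these genes by direction was not computed.

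**Figure D1:**
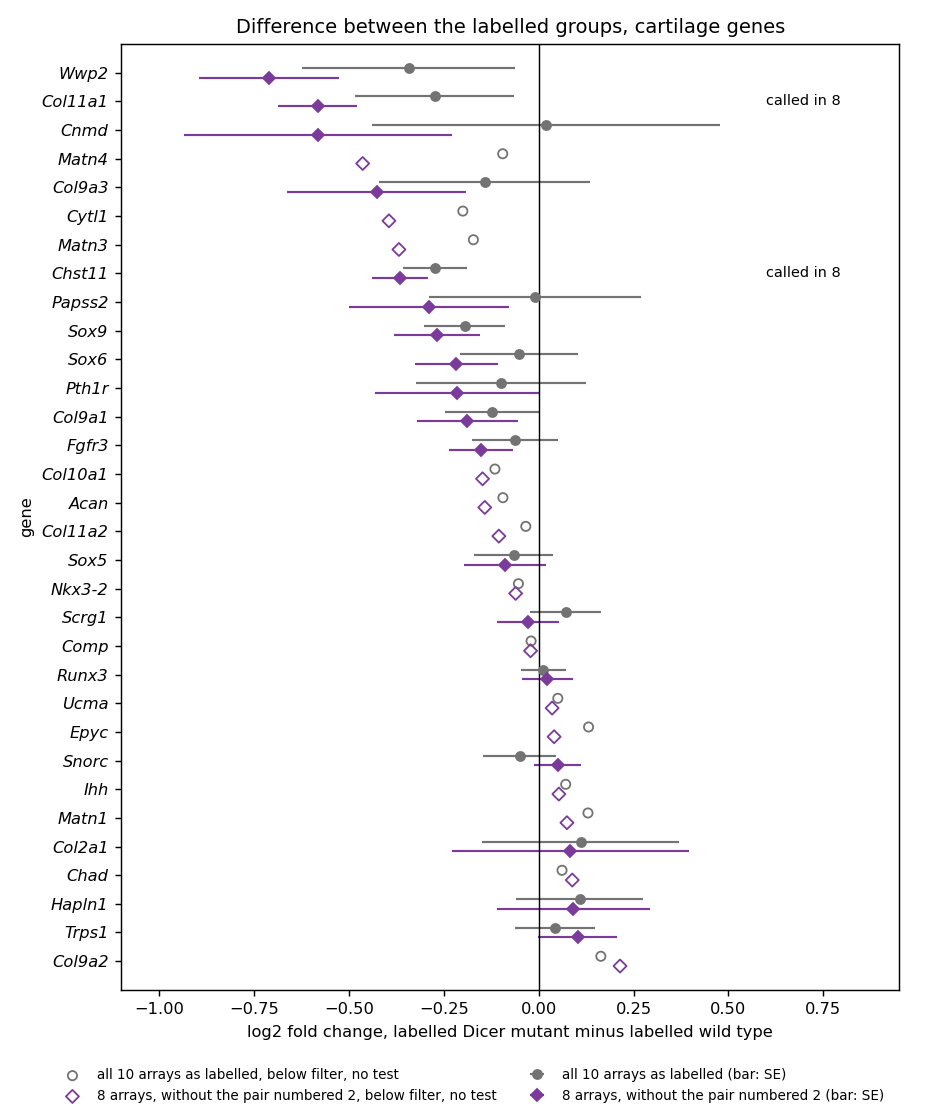
The log2 difference in signal, mutant minus wild type, of each measured member in the 10 arrays as labelled and in the 8 arrays without the pair numbered 2, with the standard error for tested members. In the 8 arrays Wwp2, Col11a1 and Cnmd stand lowest among tested members, at -0.71, -0.58 and -0.58, but the standard error of Cnmd is 0.35.

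The transcription factors come first. Sox9, which commits mesenchyme to cartilage, read 809, 661, 836, 703 and 862 in wild type arrays 1 to 5 and 702, 707, 782, 577 and 615 in mutant arrays 1 to 5. Mutant 4 and mutant 5 were the lowest arrays, and the groups overlapped, since mutant 3 lay above wild type 4 as well as wild type 2. The log2 difference was -0.20 (SE 0.11) in 10 arrays and -0.27 (SE 0.11) in 8, where limma's adjusted p was 0.362 and 0.105 with the replicate number as a block. Sox9 was lower in the mutant in each of the 4 pairs that remained, and its second tested probe set, 1424950_at, gave -0.13 (adjusted p 0.573).

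Sox5 and Sox6 are the partners that stabilise Sox9 on cartilage genes. Sox5 read 334, 342, 326, 263 and 313 in wild type arrays and 313, 349, 324, 255 and 271 in mutant arrays, in the order of their numbers. These ranges lay over each other, and the difference in 8 arrays was -0.09 (SE 0.11, limma adjusted p 0.860). Sox6 read 321, 339, 414, 350.1 and 347 in wild type arrays and 344, 517, 318, 309 and 262 in mutant arrays. Its highest array was mutant 2 and its lowest mutant 5. The difference in 8 arrays was -0.22 (SE 0.11, limma adjusted p 0.468), and the other tested Sox6 probe sets gave -0.25 and -0.29, neither called.

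Runx3, which with Runx2 drives chondrocytes to enlarge, read 199, 208, 204, 192 and 196 in wild type arrays and 215, 203, 207, 182 and 201 in mutant arrays. It was the steadiest of the tested members, with the highest array only 1.18 times the lowest, and its difference in 8 arrays was 0.02 (SE 0.067). Trps1, a repressor that acts in growth plate chondrocytes and the joint region, gave 0.10 in 8 arrays, with signals from 1447 to 1990. Nkx3-2, which holds chondrocytes back from enlarging, lay below the filter, from 117 to 166, with a difference of -0.06.

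**Figure D2:**
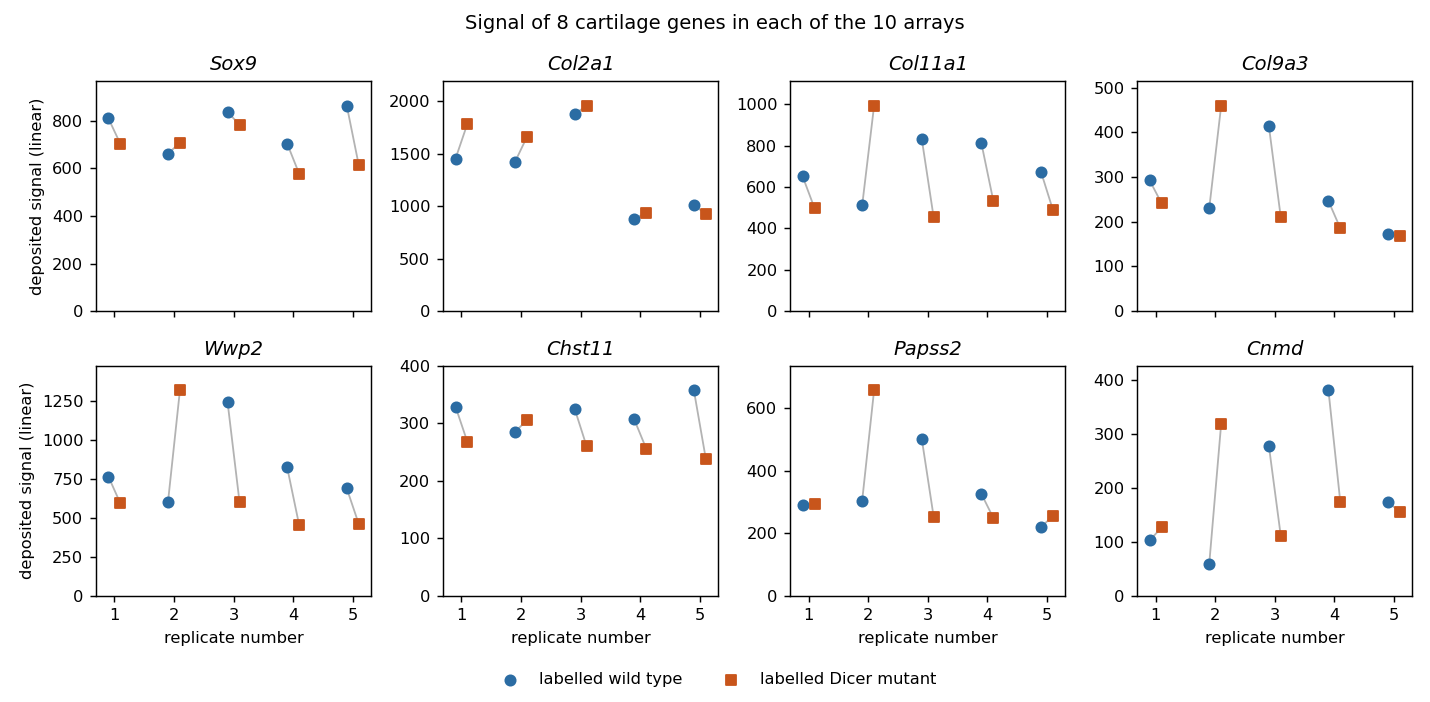
The deposited signal of 8 members in each array by replicate number, wild type beside mutant, on linear axes that start at 0. For Col11a1, Chst11 and Wwp2 the mutant lies below the wild type of the same number in the pairs numbered 1, 3, 4 and 5 and above it in the pair numbered 2, while Col2a1 steps down between numbers 1 to 3 and 4 to 5 in both groups.

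Among the collagens, Col2a1 encodes the single chain of collagen II, the main fibril of cartilage. It read 1454, 1425, 1879, 879 and 1011 in wild type arrays 1 to 5 and 1788, 1663, 1959, 940.2 and 928 in mutant arrays 1 to 5. The arrays numbered 4 and 5 lay below all arrays numbered 1 to 3 in both groups, with a geometric mean of 938 against 1682. The genotypes overlapped throughout, and the difference was 0.11 (SE 0.26) in 10 arrays and 0.08 (SE 0.31, limma adjusted p 0.968) in 8. In the fit blocked by replicate number, the 8-array value had a standard error of 0.076 and an adjusted p of 0.596.

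A separation by number without overlap was found for 2 of the 18 tested members, Col2a1 and Hapln1, which went the other way, and for 20.0% of tested probe sets. Among the members below the filter, Col9a2 was lower in numbers 4 and 5, and Col10a1 and Ucma were higher. The share over all probe sets below the filter was not computed. What the numbers stand for is not stated in the labels, and their part in these values was not tested.

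Collagen XI sits in the core of the collagen II fibril and sets its width. Its chain gene Col11a1 read 652, 511, 832, 813 and 674 in wild type arrays 1 to 5 and 498, 993, 453, 535 and 490.5 in mutant arrays 1 to 5. Without the pair numbered 2, the lowest wild type array stood above the highest mutant array. Within that pair the mutant, at 993, was the highest array of all. Over 4 arrays each, the geometric means were 739 (wild type) and 493 (mutant). The log2 difference was -0.58 (SE 0.10, limma adjusted p 0.0314, and 0.0214 with the replicate number as a block), against -0.27 (SE 0.21) in 10 arrays.

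This call was lost in 7 of the 8 fits with 1 array fewer. Leaving out wild type 1, 3 or 4 or any of the 4 mutants moved the adjusted p of Col11a1 to between 0.0520 and 0.105, while the difference stayed between -0.64 and -0.52; without wild type 5 the adjusted p was 0.0241. Within numbers 1 and 3 the difference was -0.63 (limma adjusted p 0.0470) and within numbers 4 and 5 it was -0.53 (0.413). The other Col11a1 probe set, 1449154_at, gave -0.45 (SE 0.18, adjusted p 0.317, and 0.0463 with the block).

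The other collagen chains did not pass by their chosen probe sets, with or without the replicate number as a block. Col11a2, the second chain of collagen XI, lay below the filter at 147, 142, 159, 151 and 146 in wild type arrays and 142, 169, 140.2, 143 and 135 in mutant arrays. Its groups did not overlap in the 8 arrays, by a difference of -0.10, and mutant 2 was its highest array. Of the collagen IX chains, which coat the fibril, Col9a1 was measured between 1886 and 2991 with a difference of -0.19 (SE 0.13) in 8 arrays. Its other probe set, 1421381_a_at, gave -0.30 (SE 0.21, limma adjusted p 0.675) and passed only with the block (adjusted p 0.0492). Col9a3, between 168 and 460, gave -0.43 (SE 0.24, limma adjusted p 0.535), which became -0.22 without wild type 3. The other tested Col9a3 probe set, 1460693_a_at, gave -0.60 (adjusted p 0.330), and 1420280_x_at, below the filter, gave -0.53. Col9a2, from 96.9 to 195, lay below the filter and gave 0.21.

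Collagen X is made by chondrocytes that enlarge before bone forms. Its gene Col10a1 read 112, 91.6, 110.0, 129.7 and 128 in wild type arrays and 107, 92.6, 84.1, 122 and 123 in mutant arrays, all below the filter. The groups overlapped, with a difference of -0.15 in 8 arrays.

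Of the proteoglycans and other matrix proteins, few were bright enough to test. Acan, the core protein of aggrecan, read 130.3, 128, 148, 149 and 133 in wild type arrays and 140.4, 137, 129.8, 119 and 119 in mutant arrays. It was below the filter in every array, and the difference of -0.14 in 8 arrays lies within overlapping groups. Matn1, a matrilin that bridges fibrils in mature cartilage, read 64.7, 71.8, 75.1, 94.6 and 84.3 in wild type arrays and 80.5, 91.6, 78.1, 91.4 and 82.9 in mutant arrays. Acan and Matn1 were thus dim here, each by its 1 probe set, and without detection calls their distance from background is unknown.

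Matn3 and Matn4, further matrilins, gave -0.37 and -0.46 in 8 arrays with signals of 85.5 to 146 and 87.3 to 318. Each was lower in the mutant in all 4 remaining pairs and higher in the pair numbered 2. The other Matn3 probe set, 1455948_x_at, also below the filter, gave -0.75. Comp, a glycoprotein of the territory between cells, lay between 124 and 160 with a difference of -0.02. Chad, which binds chondrocytes to collagen, lay between 122 and 163 with a difference of 0.09. Hapln1, the link protein, was tested between 159 and 297 and gave 0.09 (SE 0.20, limma adjusted p 0.939) in 8 arrays.

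Cnmd, chondromodulin, which keeps vessels out of cartilage, varied most of all members. It read 103, 59.5, 278, 381 and 174 in wild type arrays 1 to 5 and 126, 319, 111, 173 and 155 in mutant arrays 1 to 5, and its highest array was 6.40 times its lowest. Wild type 3, wild type 4 and mutant 2 were high, and wild type 2 was lowest. The difference was 0.02 (SE 0.46) in 10 arrays and -0.58 (SE 0.35, limma adjusted p 0.598) in 8, and -0.29 without wild type 4. Cnmd entered the test only through its high arrays, since most of its arrays numbered 1 to 3 lay below the filter's signal.

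Epyc, a small proteoglycan of the growth plate, lay far below the filter. It read 40.6, 35.7, 54.9, 54.9 and 37.1 in wild type arrays and 50.1, 50.4, 50.7, 51.4 and 38.9 in mutant arrays. Within the mutant group 4 arrays lay closely together and mutant 5 lay below them, and the difference in 8 arrays was 0.04. Snorc, a membrane proteoglycan of chondrocytes, read 172, 178, 183, 165 and 184 in wild type arrays and 189, 130.2, 189, 174 and 177 in mutant arrays. Here mutant 2 was the lowest array of all, and the difference in 8 arrays was 0.05.

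Cytl1, a secreted protein of chondrocytes, read 104, 90.6, 110.0, 94.9 and 108 in wild type arrays and 75.4, 135, 84.5, 78.0 and 78.9 in mutant arrays. Without the pair numbered 2 every mutant lay below every wild type, by -0.39; it lay below the filter, and with no filter it was called in the 8 arrays (limma adjusted p 0.0413). Ucma, a matrix protein of the resting zone, was the only member higher in the mutant in all 5 pairs, but by 0.05 over 10 arrays, with signals from 117 to 136.

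Among the enzymes that build and sulfate the chains of aggrecan, Chst11 puts sulfate on position 4 of the chondroitin sugar. It read 329, 285, 325, 306 and 357 in wild type arrays 1 to 5 and 267, 305, 259.8, 256 and 238 in mutant arrays 1 to 5. Without the pair numbered 2 the highest mutant array was below the lowest wild type array. The geometric means of 4 arrays were 329 and 255. The log2 difference was -0.37 (SE 0.074, limma adjusted p 0.0466, and 0.0377 with the block), against -0.27 (SE 0.085) in 10 arrays.

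This call was close to the threshold. Leaving out wild type 1, 3 or 4 or any of the 4 mutants moved the adjusted p of Chst11 to between 0.0801 and 0.147, and the difference to between -0.40 and -0.33; without wild type 5 the adjusted p was 0.0466. Quantile normalization gave 0.0654 and no filter 0.0729. Within numbers 1 and 3 the difference was -0.31 (limma adjusted p 0.0808) and within numbers 4 and 5 it was -0.42 (0.422). The second Chst11 probe set, 1450509_at, lay below the filter and gave -0.00094.

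Papss2 makes the activated sulfate that these enzymes use. It read 289, 304, 501, 326 and 219.6 in wild type arrays and 292, 657, 252, 249 and 254 in mutant arrays. Mutant 2 and wild type 3 were high, and the other 8 arrays lay between 219.6 and 326. The difference was -0.01 (SE 0.28) in 10 arrays and -0.29 (SE 0.21, limma adjusted p 0.694) in 8. In the 8 arrays the other tested Papss2 probe sets gave -0.03 and -0.11, neither called, and 1421988_at, below the filter, gave 0.0029.

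Of the signals and receptors, Ihh, the hedgehog ligand of chondrocytes about to enlarge, read 60.6, 59.1, 56.7, 61.2 and 57.2 in wild type arrays and 67.8, 65.2, 54.9, 66.4 and 56.3 in mutant arrays. All arrays were below the filter, and the groups overlapped. Pth1r, the receptor that keeps chondrocytes dividing, was tested between 206 and 453 and gave -0.22 (SE 0.22, limma adjusted p 0.812) in 8 arrays. Fgfr3, the growth factor receptor that slows chondrocyte division, lay between 268 and 410 and gave -0.15 (SE 0.085, limma adjusted p 0.536), lower in all 4 remaining pairs.

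Wwp2, a ubiquitin ligase, is a direct Sox9 target and carries the miR-140 gene in one of its introns. Of the 34 members, it alone had a microRNA hairpin of the RefSeq table within its gene bounds, on the same strand. The hairpin is shown because Dicer, the deleted enzyme, cuts such precursors. It lies at chr8:107551244-107551313 on the plus strand of GRCm38.p6 (RefSeq), and the arm that RefSeq lists as mature at chr8:107551288-107551308. Capitals mark that arm in the hairpin and the seed, bases 2 to 8, in the mature sequence, both written 5′ to 3′.
Mir140 hairpin: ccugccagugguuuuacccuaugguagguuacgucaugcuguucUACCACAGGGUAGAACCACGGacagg
mmu-miR-140-3p: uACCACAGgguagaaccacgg
The arrays measured the host transcript and not the microRNA.

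The representative Wwp2 probe set read 766, 604, 1244, 825 and 690.4 in wild type arrays 1 to 5 and 595, 1323, 603, 457 and 463 in mutant arrays 1 to 5. Without the pair numbered 2 every mutant lay below every wild type. In that pair the order was turned, and mutant 2 was the highest array of all. The geometric means of 4 arrays were 859 and 525, and the log2 difference was -0.71 (SE 0.18). Limma's adjusted p was 0.112, and 0.0224 with the replicate number as a block. In 10 arrays the difference was -0.34 (SE 0.28). Without wild type 3, the brightest of the 8, it was -0.53 (adjusted p 0.170), and within numbers 1 and 3 and within numbers 4 and 5 it was -0.71 and -0.72, with adjusted p of 0.106 and 0.352.

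The probe sets of Wwp2 did not move together. 1438482_at read 295, 204, 379, 326 and 289.9 in wild type arrays and 211, 399.6, 211, 212 and 191 in mutant arrays, and was called in the 8 arrays at -0.64 (SE 0.095, limma adjusted p 0.0162, and 0.00951 with the block). It too had no overlap without the pair numbered 2. 1448146_at gave -0.46 (adjusted p 0.436) and 1456714_at -0.16 (0.891), both with mutant 2 or wild type 3 highest. 1442162_at gave 0.15 (0.826), and 1457499_at, below the filter, gave 0.11. Which part of the transcript a probe set reads was not analysed here. Scrg1, a gene expressed in differentiating chondrocytes, gave -0.03 in 8 arrays, with signals from 142 to 201.

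**Figure D3:**
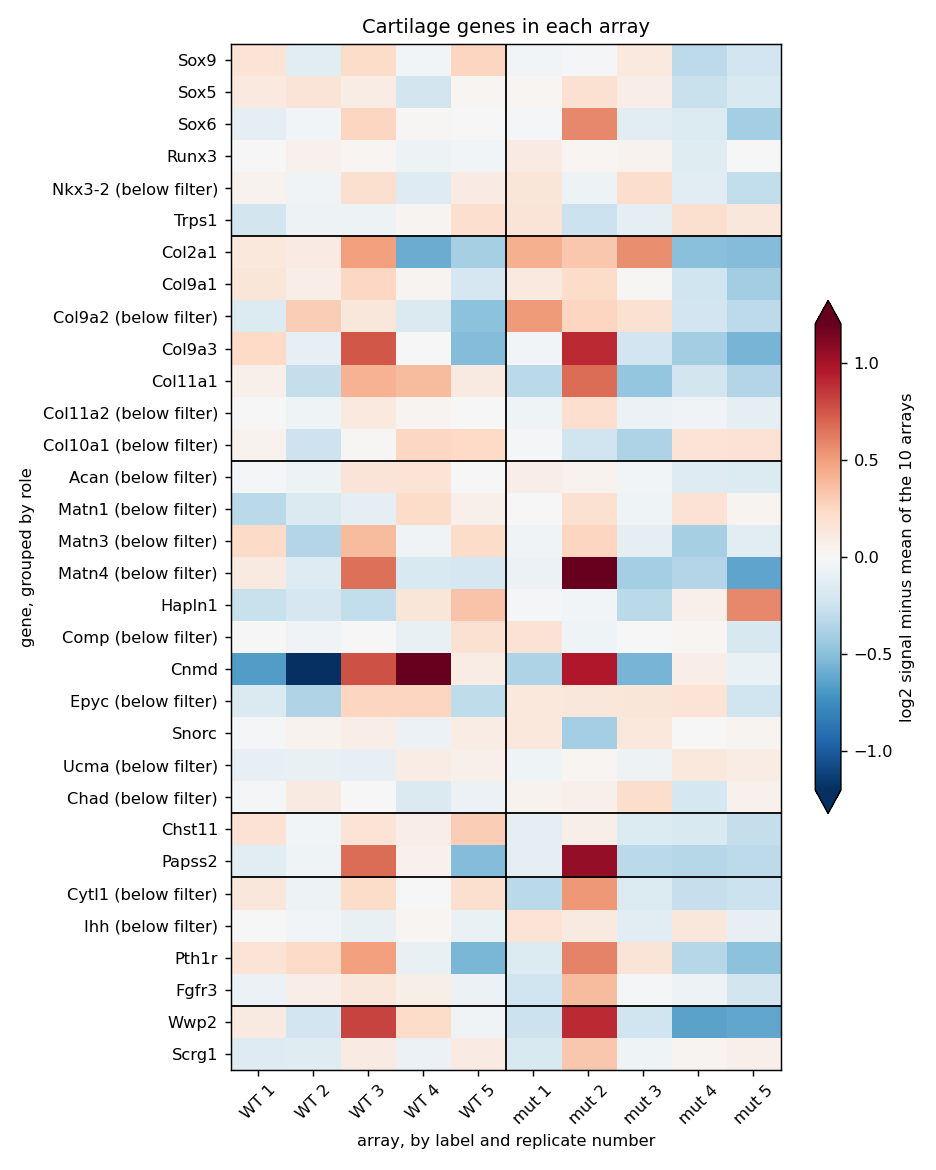
The log2 signal of each measured member in each array, centred on that member's mean over the 10 arrays, with members in the order of their roles. Wild type 3 and mutant 2 are above the centre for most tested members (medians 0.23 and 0.32), and mutant 4 and mutant 5 below it (medians -0.20 and -0.26).

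The highest array was a median of 1.53 times the lowest over the 32 members. Mutant 2 was the highest array for 12 members, among them 9 of the 18 tested, against 6.63% of tested probe sets. Mutant 5 was the lowest array for 9 members, 4 of them tested, and mutant 4 for 6, 4 of them tested. No share over probe sets was computed for the lowest array. Wild type 3 and mutant 2 were picked out after the members' values were seen, which favours the members in the next counts. These counts are therefore a description and no test. Both arrays were among the 3 highest for 10 of the 18 tested members, against 13.1% of tested probe sets. These members were Sox6, Col9a1, Col9a3, Col11a1, Cnmd, Pth1r, Wwp2, Fgfr3, Scrg1 and Papss2. Below the filter this held for 4 members, with no share computed for such probe sets. Over tested probe sets the centred medians of these arrays were 0.02 and -0.04, so the arrays as a whole were not brighter.

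By pair, the median difference of the 32 members was 0.03 in number 1, 0.20 in number 2, -0.15 in number 3, -0.09 in number 4 and -0.12 in number 5. The number of members lower in the mutant was 15, 7, 24, 24 and 24 in that order, and of the 18 tested 10, 3, 15, 14 and 14. The medians of all tested probe sets were -0.024, -0.058, -0.0013, -0.0010 and -0.0099. No share of probe sets lower in the mutant was computed by pair. The pair numbered 2 thus ran against the pairs numbered 3 to 5, and pair 1 was near even. In all 4 pairs without number 2, the mutant was lower for 8 of 18 tested members (Sox9, Sox5, Col9a1, Col9a3, Col11a1, Chst11, Wwp2 and Fgfr3), against 16.8% of tested probe sets. It was also lower in all 4 for Col11a2, Col10a1, Matn3, Matn4 and Cytl1, below the filter, and higher in all 4 for Ucma alone. No share over probe sets below the filter stands beside these.

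Groups without overlap were fewer. With the 8 arrays, 3 of the 18 tested members, Col11a1, Chst11 and Wwp2, had all mutants below all wild types, against 4.97% of tested probe sets. So had Col11a2 and Cytl1 among the 14 below the filter, but no share was computed for probe sets below it. With the 10 arrays no member was without overlap, against 0.400% of tested probe sets. The median difference of the 18 tested members was -0.06 in 10 arrays, where that of all tested probe sets was -0.02. In 8 arrays it was -0.20, where that of all tested probe sets was -0.01. Over all 32 members, those below the filter included, the medians were -0.05 and -0.12. Without wild type 3 the medians of the 32 were 0.0086 and -0.067, and without mutant 5 they were 0.012 and -0.091. Of the 18 tested members, 12 were below 0 in the 10 arrays and 13 in the 8, against 61.7% and 54.2% of all tested genes. The 10-array share was thus near that of all tested genes. Of all 32 members, 20 and 21 were below 0, and no share was computed for genes below the filter.

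**Figure D4:**
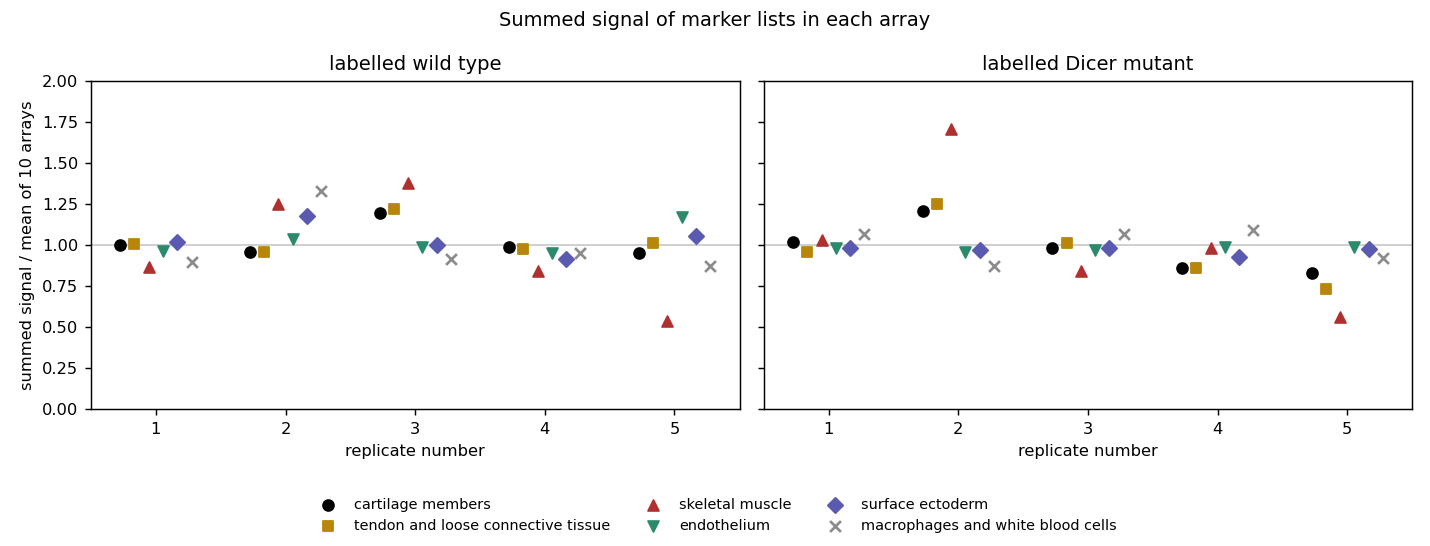
The summed signal of the cartilage members and of marker lists in each array, relative to that list's mean over the 10 arrays. The marker lists are tendon and loose connective tissue, skeletal muscle, endothelium, surface ectoderm, and macrophages and white blood cells. The cartilage, tendon and muscle lists are high in wild type 3 and mutant 2, and the muscle list also spreads from 0.54 in wild type 5 to 1.71 in mutant 2. Endothelium (0.99 and 0.96), surface ectoderm (1.00 and 0.97) and white blood cells (0.92 and 0.88) are not high in wild type 3 and mutant 2.

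The marker lists of some other cells were high in the same arrays as the cartilage genes, and others were not. The summed signal of the cartilage members was 14987 in wild type 3 and 15159 in mutant 2, and between 10415 and 12786 in the other 8 arrays. The tendon and loose connective tissue list (19 of 20 genes on the array) summed to 13461 and 13766 in those arrays and to between 8084 and 11186 in the others. The skeletal muscle list (20 of 20) summed to 10817 and 13373, against 4222 to 9811. Its gene Actc1, the actin of early muscle, chosen after its values were seen, read 1781, 2740.1, 3288, 1562 and 761 in wild type arrays and 2346, 3921, 1753, 1976 and 762 in mutant arrays. Relative to its mean over the 10 arrays, the nerve and Schwann cell list was also high, at 1.16 in wild type 3 and 1.198 in mutant 2. Red cells stood at 0.89 and 0.75, the lowest arrays of that list, and white blood cells at 0.92 and 0.88. Endothelium stood at 0.99 and 0.96 and surface ectoderm at 1.00 and 0.97. All these sums of linear signal weigh the brightest probe sets most. The red cell list summed to 30030 in wild type 3 and 25385 in mutant 2. Of this, Hbb-y gave 12732 and 11390, Hba-x 8974 and 7211, and Hbb-bh1 5298 and 4326. How far the mix of tissue in each limb bud sample bears on the cartilage values was not tested.

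Between genotypes in the 8 arrays, the tendon list summed to 10752 to 13461 in the wild type and 8084 to 11186 in the mutant, the muscle list to 4222 to 10817 and 4388 to 8084. The median difference of the tested tendon list was -0.24 (19 on the array: -0.23), beside -0.20 for the 18 tested cartilage members and -0.12 for all 32, and that of the tested muscle list was -0.02. None of their genes passed without the block, and the smallest p belonged to Tcf7l2 (-0.34, limma adjusted p 0.265) and to Ckm (-0.15, 0.838). With the block Lum, a proteoglycan of connective tissue, fell (-0.50). Of the tendon list, 6 genes, such as Col1a1 and Tnc, also stand on a pathway list given below. Of nerve and Schwann cell markers (12 of 14 on the array) the sums were 1682 to 2224 and 1615 to 1900, and Gap43, a protein of growing axons, fell (-0.34, adjusted p 0.0466). White blood cell markers (16 of 16) summed to 2619 to 2854 and 2774 to 3283, with Ctss at 0.43 (adjusted p 0.0773, and 0.0197 with the replicate number as a block, where Tyrobp was higher too). Endothelium (15 of 15) summed to 4200 to 5169 and 4278 to 4368 with Erg at -0.46 (0.113), surface ectoderm (15 of 15) to 6162 to 7104 and 6250 to 6607 with Krt14 at -0.45 (0.283, and 0.0174 with the block), and red cells (10 of 12) to 30030 to 37182 and 32332 to 40450 with Hbb-y at 0.08 (0.468). No listed marker stood at 0 in any array, and the part of these cells in the cartilage values was not tested.

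The pathway around the members was read from 6 lists of 133 entries, of which 125 were on the array and 105 were tested. In the 10 arrays limma called 0 of them in either direction, as it called no probe set. In the 8 arrays it called 0 higher and 3 lower, beside 1.68% of tested probe sets called and 0.750% called lower. With the block it called 3 higher and 8 lower, beside 5.41% called and 3.01% called lower. The list entries are genes and these shares are over probe sets. By gene, 250 of 11601 tested genes were called in the 8 arrays and 764 with the block, in either direction. The lists are described in the order in which cartilage forms.

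Condensation and early mesenchyme (14 of 16 tested) gave 2 lower genes and none higher. Has2, which makes the hyaluronan that mesenchyme clears before it condenses, read 385, 264, 394, 399.6 and 422 in wild type arrays and 298, 404, 266, 324 and 305 in mutant arrays. All 4 mutants other than mutant 2 lay below all wild types but number 2, and it fell by 0.43 (SE 0.080, limma adjusted p 0.0369) in the 8 arrays. Foxc1, a forkhead factor of condensing mesenchyme, fell by 0.60 (SE 0.12, adjusted p 0.0430). The median of the tested genes was -0.04.

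Signals and receptors (26 of 29 tested) gave 1 lower gene, Bmpr1b, the receptor through which BMPs and Gdf5 act on condensations. It read 289, 252, 296, 288 and 339 in wild type arrays and 202, 308, 195, 239 and 204 in mutant arrays, and fell by 0.53 (SE 0.088, limma adjusted p 0.0260) in the 8 arrays. As with Col11a1, the arrays numbered 2 ran the other way. With the block, Bmpr2, the partner receptor, was higher (0.33, adjusted p 0.0373) and Bmp2, a ligand, lower (-0.39, 0.0348).

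Chondroitin sulfate synthesis (17 of 23 tested) gave no call without the block. Csgalnact2, which starts the chondroitin chain, had the smallest p at -0.40 (SE 0.12, limma adjusted p 0.167, and 0.0209 with the block). The list's median was -0.06. Other matrix and collagen processing genes (19 of 24 tested) gave no call without the block, with Col27a1, a fibrillar collagen of cartilage, at -0.37 (adjusted p 0.358) and a median of -0.12; with the block Pcolce was higher (0.29) and Col6a2 lower (-0.33).

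Perichondrium, joint and bone genes (14 of 21 tested) gave no call in either fit. Erg, a factor of the joint region that endothelium also expresses, had the smallest p (-0.46, limma adjusted p 0.113). Other transcription factors of chondrocytes (15 of 20 tested) gave no call without the block. Cbfb, the partner of Runx factors, had the smallest p at 0.25 (adjusted p 0.0905, and 0.0377 with the block), and Pax9 (-0.37) and Foxp1 (-0.35) were lower with the block.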

How the data were processed

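RNA from mouse limb buds was hybridised to Affymetrix arrays, 1 sample per array. The deposited values are linear intensity per probe set, 45101 in each of 10 arrays, made by the authors with GCOS version 1.3 per the submitters' processing notes; the labels give neither summarization nor scaling. Trimmed means lay between 276 and 289, so no normalization was added. A summarization that compresses low signals would understate the changes of dim members.

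The intensities, floored at 1, were put on the log2 scale. After removal of 64 control probe sets, the brighter part (mean log2 at or above the median of the remainder, 22519) was tested. The model was limma's (version 3.58.1, R 4.3.3), fitted by lmFit and moderated by eBayes along the intensity trend, and p-values were adjusted by Benjamini-Hochberg over all tested probe sets, with a threshold of 0.05. The script was tested on simulated data. The platform annotation gave 34958 probe sets 1 symbol, 932 several and 9211 none, and 34754 matched the RefSeq table of GRCm38.p6, which changed 0 symbols. Signals of different probe sets were added in the list sums and held against the common filter. Apart from this they were not set against each other.

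The members, the gene lists, the tests and the 8-array comparison were chosen with earlier results of these data known. Values in every array are given for called members, for those that stand for each role and for those with an outlying array; of each gene list the called genes, up to 3, or the 1 with the smallest p in the 8 arrays, are named, and genes called only with the block were added. Alternatives were quantile normalization, centring, offsets, other filters, array weights, the mean of a gene's probe sets, the replicate number as a block, numbers apart, and each array left out.

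Replicate numbers were taken to pair arrays where every same-number correlation of deviations from the group means was over 0.1. In 10 arrays they were 0.43, -0.18, 0.27, 0.67 and 0.41 for numbers 1 to 5, so the numbers do not pair them. In the 8 arrays they were 0.55, 0.55, 0.71 and 0.32, and blocked values are given where they change a call. Correlations with another number reached 0.54 for numbers 1 and 3 and 0.52 for numbers 4 and 5, above number 5's own. The first principal component (37.7% of the variance over the 10 arrays) parted numbers 1 to 3 from 4 and 5 in both groups. Such a split can by itself lift same-number correlations over 0.1, so the rule does not establish pairs. The labels do not explain the numbers.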

Additional observations from a re-analysis of the deposited data

Results flagged for a closer look

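Each member's wild type and mutant arrays were looked at for 1 array far from the other 4, by the gap to its nearest neighbour as a share of the group's range. Of 64 such groups 7 held one, and chance marks about 1 group in 20. In 6 of the 7 the array was mutant 2. It lay above the other mutants for Col11a1 (0.789 of the range), Col11a2 (0.751), Cytl1 (0.804), Wwp2 (0.738) and Papss2 (0.835), and below them for Snorc (0.782). The seventh was Epyc, where mutant 5 lay below the other mutants (0.908). Mutant 2 is the array whose Dicer1 signal lay above that of the wild type with its number.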

How the results depend on the processing

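In the 8 arrays the 2 called members became 1 with quantile normalization, 6 with array weights (Sox9, Col9a1, Col9a3 and Wwp2 in addition), 0 with the mean of each gene's probe sets, 3 with the replicate block, 1 in numbers 1 and 3 alone and 0 in numbers 4 and 5 alone. Leaving out 1 array gave 0 to 2, and 2 only without wild type 5. The 378 called probe sets became 2612 with array weights, 1219 with the replicate block, 812 in numbers 1 and 3 and 0 in numbers 4 and 5, and 93 to 745 when 1 array was left out. The members' 8-array median of -0.12 became -0.21 with array weights and -0.082 with an offset of 64, and ran from -0.14 to -0.067 when 1 array was left out. Their 10-array median of -0.05 ran from -0.10 to 0.012 when 1 array was left out, above 0 without wild type 3 or mutant 5, -0.024 and -0.023 without mutant 3 and mutant 4, lowest without mutant 2, and was 0.035 in numbers 1 to 3 and -0.15 with array weights. In the 10 arrays no alternative called a member, the replicate block included. The cause of these shifts was not tested.

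With the mean of its probe sets the adjusted p was 0.0791 for Col11a1 and 0.183 for Chst11. Of 32 members, 22 kept their sign in every alternative run of the 8 arrays (17 below 0), these included, and in the 10 arrays 11 of 32 did (9 below 0). Signs turned for some tested members. In the 10 arrays these were Cnmd (-0.0039 and -0.034 with offsets of 16 and 64, -0.068 with array weights, -0.65 in numbers 4 and 5), Col2a1 (-0.35 with array weights, -0.014 in numbers 4 and 5), Papss2 (0.022 with quantile normalization, 0.0014 with centred medians, 0.020 with the mean of probe sets, 0.044 in numbers 1 to 3), Runx3 (-0.029 and -0.019, as for Col2a1, and -0.021 with the mean of probe sets), Snorc (0.010 in numbers 4 and 5) and Sox6 (0.11 in numbers 1 to 3). In the 8 arrays array weights and numbers 4 and 5 gave -0.47 and -0.014 for Col2a1, -0.035 and -0.019 for Runx3 (-0.029 with the mean of probe sets), and 0.035 and 0.033 for Scrg1. Leaving out 1 array of the 10 turned the sign within these ranges: Cnmd -0.34 to 0.33, Col2a1 -0.025 to 0.25, Col9a3 -0.38 to 0.026, Hapln1 -0.024 to 0.21, Papss2 -0.28 to 0.16, Pth1r -0.26 to 0.011, Runx3 -0.011 to 0.050, Scrg1 -0.00065 to 0.13, Snorc -0.087 to 0.046, Sox6 -0.20 to 0.044, Trps1 -0.0082 to 0.11. Leaving out 1 array of the 8 turned the sign within these ranges: Col2a1 -0.11 to 0.28, Hapln1 -0.077 to 0.22, Runx3 -0.0094 to 0.071, Scrg1 -0.077 to 0.021.

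Signals, not reads, were deposited, and no detection calls were used here, so the number of arrays limits precision and dim members have no known distance from background.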

Other observations

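Gdf5, the ligand that marks the joints which divide limb cartilage, is no listed member and was chosen after its values were seen. It read 266, 193, 392, 266 and 165 in wild type arrays and 198, 506, 165, 169 and 152 in mutant arrays. Mutant 2 and wild type 3 were its highest arrays, and the log2 difference in the 8 arrays was -0.61 (SE 0.22, limma adjusted p 0.262).

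The 250 bases before the RefSeq gene starts were searched for the motifs ACAAAG and ACAATG on both strands, letters that SOX proteins are known to bind. Of 39 windows of 26 members, 10 held a match (25.6%), against 8292 of 32851 windows of all genes (25.2%). By gene, 5 of the 26 members had a match: Sox5, Sox6, Col10a1, Epyc and Pth1r. Sox6 alone held 5 of the 10 matching windows, among its 6, and Epyc 2. Sox9, Col2a1, Col9a3, Comp, Snorc, Trps1, Scrg1 and Xylt1 had no window and were not searched.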
